A study of Homo sapiens with 8 samples.

Results

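VDAC1, VDAC2 and VDAC3 encode the voltage-dependent anion channels of the outer mitochondrial membrane, and HK1, HK2 and HKDC1 encode hexokinases that can dock on these channels. These 6 genes, out of 43317 gene names on the arrays, were read by 10 of 58201 probes. The members were taken by gene name, and the set was chosen by measured values: VDAC1 and HKDC1 are among the genes the study selected on the HCT116 array of miR-490-3p. Their values on that array are therefore given as a description, with no test.

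VDAC proteins are the main passage for ATP, ADP and other metabolites between the cytosol and mitochondria. Hexokinases phosphorylate glucose to glucose-6-phosphate, the entry step of glycolysis, and HK1 and HK2 carry an N-terminal stretch that binds VDAC, which places them next to mitochondrial ATP. HK1 is the widespread form, HK2 is raised in many cancers, and HKDC1 is a later described family member with low activity. VDAC1 is the most abundant channel in most cells, while VDAC2 is known for holding BAK1 at the membrane.

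The data were 8 two-colour arrays of human cancer cell lines, each comparing a transfected sample in Cy5 with a mock sample of the same line, labelled no transfection, in Cy3. The renal cancer lines A498 and 786-O received miR-139-5p or miR-139-3p (1 array per line and strand). The breast cancer line MDA-MB-231 received si-GINS1_1 or si-GINS1_2 (1 array each), small interfering RNAs against GINS1, a subunit of a DNA replication complex. The CRC line HCT116 received miR-490-5p or miR-490-3p (1 array each). Agents were delivered with Lipofectamine RNAiMAX. No dyes were swapped, so dye and transfection cannot be told apart in a ratio against mock, and no array used a control miRNA or control siRNA.

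Between 24980 and 29685 probes per array had a signal well above background in Cy3, Cy5 or both. GINS1 read -1.31 and -1.92 on the log2 scale on the si-GINS1_1 and si-GINS1_2 arrays, and between -0.11 and 0.55 on the other 6. The kidney genes PAX8 and PAX2 were highest in the mock channels of A498 and 786-O. The intestinal genes CDX2 and EPCAM were highest in HCT116, where VIL1 and CDH17 were not well above background, while CDX1 was highest in A498 (7.12, against 6.81 in HCT116). Of the breast markers, PGR was not well above background in any line, KRT8 was at 9.89 in MDA-MB-231 and highest in HCT116, and GATA3 was highest in MDA-MB-231. ERBB2 (8.48) and ESR1 (5.99) had their lowest mean in that line, nearly level with HCT116 (8.49 and 5.99). Both were well above background in both mock channels of every line. The mesenchymal gene VIM was at 14.65 in MDA-MB-231 and higher in both renal lines. Of the immune and endothelial markers PTPRC, CD3E and PECAM1, the mean mock level did not pass 6.21 in any line. PTPRC was still well above background in both mock channels of every line, and CD3E in those of A498 and 786-O. PECAM1 was so in 1 mock channel each of 786-O and MDA-MB-231.

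The 4 transfected miRNA strands are printed because the HCT116 and renal comparisons turn on them. Capitals mark the seed, bases 2 to 8. The sequences and coordinates are those of RefSeq on GRCh38.p14.
hsa-miR-490-3p: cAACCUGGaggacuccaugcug
hsa-miR-490-5p: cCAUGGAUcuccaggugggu
hsa-miR-139-3p: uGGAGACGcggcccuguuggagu
hsa-miR-139-5p: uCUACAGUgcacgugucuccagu
Both miR-490 strands come from chromosome 7 (plus strand, 136903242 to 136903263 for the 3p strand and 136903205 to 136903224 for the 5p strand). Both miR-139 strands come from chromosome 11 (minus strand, 72615066 to 72615088 for the 3p strand and 72615102 to 72615124 for the 5p strand). No pair of these strands shares a seed. The 7 bases complementary to each seed were CCAGGTT for miR-490-3p, ATCCATG for miR-490-5p, CGTCTCC for miR-139-3p and ACTGTAG for miR-139-5p. None of them, and none of their reverse complements, was found in the 10 member probes of 60 bases. Among all 58201 probes, 0.390%, 0.448%, 0.168% and 0.320% held these letters as written, and 0.902%, 1.002%, 0.347% and 0.744% held them on either strand. The probe windows cover only a small stretch of each transcript, so the search says nothing of the rest.

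Probes are named by the position on the transcript that the array files give. On hg19, the VDAC1 probes at 806 and 1597 lay on chromosome 5 (133311643 to 133311702, and 133307902 to 133307961). The VDAC2 probes at 1490 and 1506 lay on chromosome 10 (76990753 to 76990812, and 76990947 to 76991006) and named different transcripts. VDAC3 had 1 probe, at 807, and HK1 had 1, at 3483 (chromosome 10, 71161158 to 71161217). The HK2 probes at 4970 and 6942 lay on chromosome 2 (75118359 to 75118418, and 75120331 to 75120390). The HKDC1 probes at 2095 and 3331 lay on chromosome 10 (71017113 to 71017172, and 71026958 to 71027017). HKDC1 and HK1 are neighbours with 0 genes between them in the GRCh38.p14 annotation. The HK2 probe at 4970 was not well above background on any array and gives no ratio here. The other 9 probes were well above background in both channels on all 8 arrays.

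In HCT116 cells transfected with miR-490-3p, VDAC1 and HKDC1 were the members with the lowest signal relative to mock. The brighter VDAC1 probe, at 1597, read -1.34 on the log2 scale (2.53-fold lower), and the dimmer one, at 806, read -0.61. The brighter HKDC1 probe, at 3331, read -1.43 (2.70-fold lower), and the one at 2095 read -0.44. Both probes of each gene were below mock, and in both genes the brighter probe lay farther from 0. A difference of at least 1 on the log2 scale was taken as the size to count, since each miR-490 strand had 1 array and no replicate check. Of 28356 probes measured, 0.578% were at or below -1 and 0.346% were at or above 1. The members at or below -1 were the VDAC1 probe at 1597 and the HKDC1 probe at 3331, 2 of 9, and no share is read from this, since the array chose them. Only 55 probes were as low as or lower than this VDAC1 probe and 37 as low as or lower than this HKDC1 probe, counting the probe itself.

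The other channels and hexokinases were not low on the miR-490-3p array. VDAC2, which has a role in keeping BAK1 at the membrane, read 0.05 at 1490 and 0.28 at 1506. VDAC3, the third channel, read 0.31, and HK1 read 0.25. HK2, the inducible hexokinase, read -0.17. Within the channel family the low values were those of VDAC1, which was chosen on this array, so this contrast is a description only. The probes of both other channels lay above 0, also with median centring, which raised every channel probe on this array.

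With miR-490-5p, the other strand of the same duplex, the order of the members was different. The HKDC1 probe at 3331 read -2.01 (4.03-fold lower), and 16 of 27929 probes were as low or lower, itself included. The HKDC1 probe at 2095 read -0.54. HK2 read -0.99, just short of the counted size, and HK1 read 0.46. HKDC1 was thus below mock with both strands and HK2 was lower with the 5p strand, while HK1 was above mock with both. Among the channels, VDAC1 read 0.26 at 1597 and 0.02 at 806, VDAC2 read -0.30 and -0.06, and VDAC3 read 0.24. Over all probes, 0.963% were at or below -1 and 0.265% at or above 1, and 1 of 9 member probes was at or below -1.

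**Figure D1:**
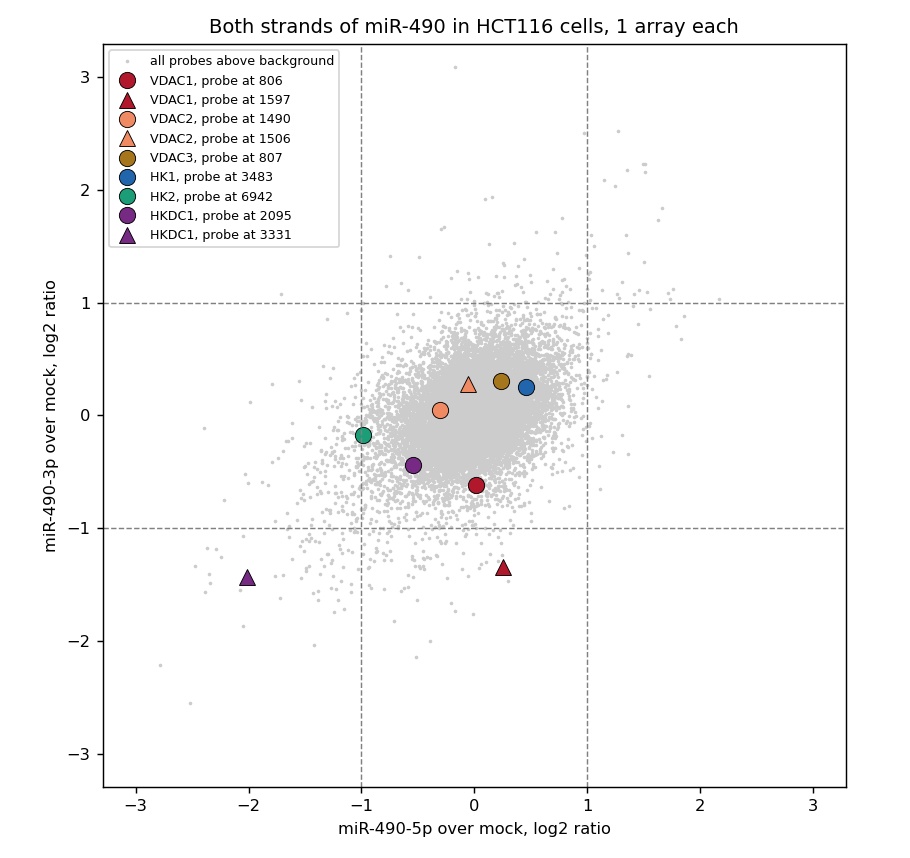
Log2 ratio over mock with miR-490-5p (x axis) and miR-490-3p (y axis) in HCT116 cells, 1 array each; grey points are all probes above background on both arrays, coloured points are the member probes, and dashed lines mark 1 and -1. VDAC1 at 1597 sits at 0.26 on the x axis and -1.34 on the y axis, and HKDC1 at 3331 is low on both axes (-2.01 and -1.43).

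The difference between the strands, in which a dye effect common to both arrays cancels, separated VDAC1 from HKDC1. VDAC1 was lower with miR-490-3p than with miR-490-5p by a log2 difference of -1.60 at 1597 (3.03-fold) and -0.63 at 806. Of 26881 probes, 9 had a difference as low or lower, this probe included. The HKDC1 probes differed by 0.58 at 3331 and 0.10 at 2095, toward a lower signal with the 5p strand. HK2 was higher with the 3p strand by 0.81, VDAC2 by 0.35 and 0.33, and VDAC3 by 0.07, while HK1 was lower by -0.21. Over all probes, 0.383% were at or below -1 and 0.785% at or above 1, and the VDAC1 probe at 1597 was the 1 member of 9 past the size. The difference includes the miR-490-3p array on which VDAC1 and HKDC1 were chosen, so the low rank of VDAC1 is a description only. No test can be made between 1 array and 1 array.

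The raw brightness shows what these ratios rest on. VDAC1 at 1597 had a mean Cy3 brightness of 4078 in mock and a Cy5 brightness of 2079 with miR-490-3p, against 4069 and 5693 on the miR-490-5p array. HKDC1 at 3331 was dim: Cy3 193 and Cy5 57.1 with miR-490-3p, and Cy3 227 and Cy5 30.9 with miR-490-5p, over local Cy5 backgrounds of 16.0. The bright channel probe thus lay far above background on every array, and the HKDC1 probe lay close to it after transfection. The background step adds an offset of 50, which pulls dim probes toward 0. In the scanner's own log ratio without that offset, HKDC1 at 3331 read -2.34 with miR-490-3p, against -3.99 with miR-490-5p, HKDC1 at 2095 read -1.34 and -2.04, and VDAC1 at 806 read -1.21 with miR-490-3p, while VDAC1 at 1597 read -1.39. With median centring in place of loess, VDAC1 at 1597 read -0.97 with miR-490-3p and was no longer past the size, and HK2 turned from -0.17 to 0.15. Median centring moved the median of the probes above background by up to 0.15 on an array.

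**Figure D2:**
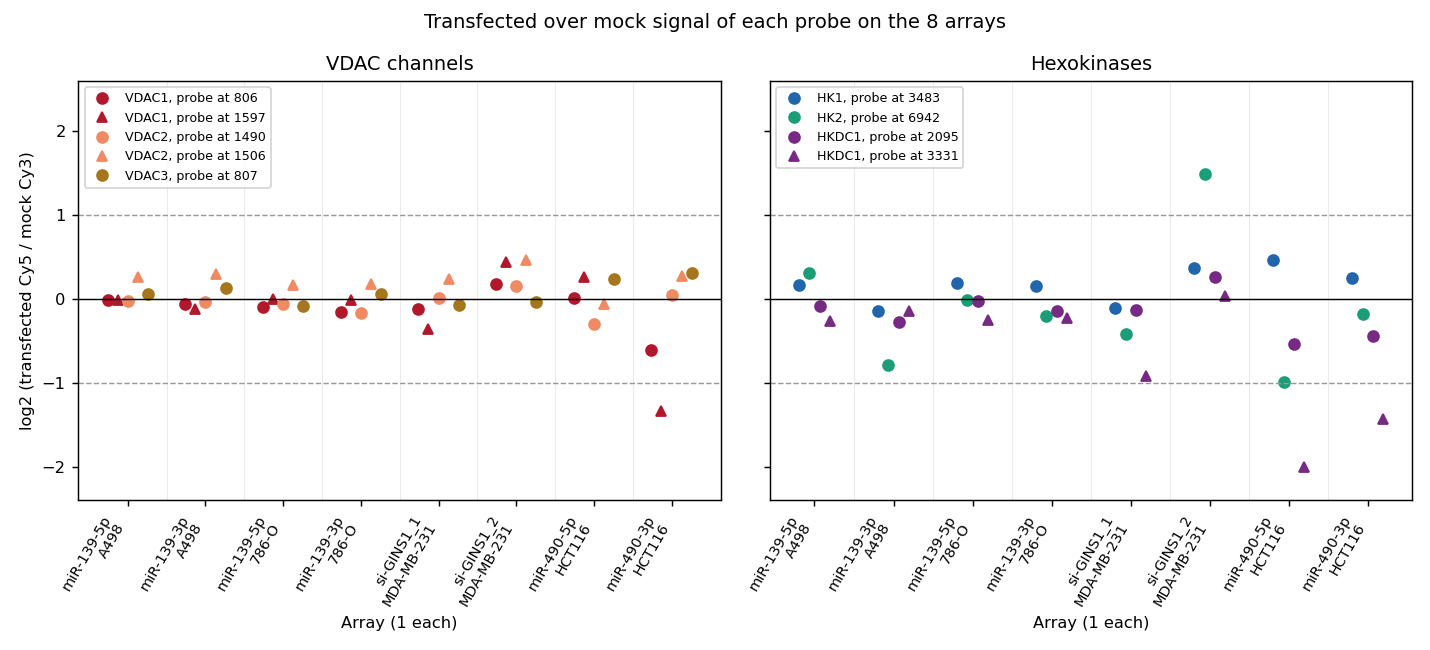
Log2 of transfected Cy5 over mock Cy3 (y axis) for each of the 9 measured member probes on each of the 8 arrays (x axis, 1 point per probe and array); dashed lines mark 1 and -1. The points that leave this band are VDAC1 at 1597 with miR-490-3p (-1.34), HKDC1 at 3331 with both miR-490 strands (-2.01 and -1.43) and HK2 with si-GINS1_2 (1.49).

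In renal cancer cells transfected with either strand of miR-139, the channels and hexokinases showed no change that passed the test. The choice rests on the miR-490-3p array, but it was made with earlier results of all arrays known. Limma's test was applied across all probes, with Benjamini-Hochberg adjustment and a threshold of 0.05. For miR-139-5p, 3 of 23282 probes (0.0129%) were called, all lower, and 593 had an unadjusted p under 0.05. With the cell line as a block the count was 0. For miR-139-3p, 0 of 22806 probes (0%) were called by limma, with 1012 at an unadjusted p under 0.05, and up to 13 were called under the other processing settings. None of the 9 member probes was called in either comparison.

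VDAC1 stayed near 0 on the 4 renal arrays. The probe at 1597 read -0.01 in A498 and 0.00 in 786-O with miR-139-5p, against -0.12 and -0.01 with miR-139-3p. The probe at 806 read -0.01 and -0.10 with miR-139-5p, against -0.05 and -0.15 with miR-139-3p. These values lay above the HCT116 value of the same probe with miR-490-3p. VDAC1 was chosen on that array, so this order is a description only. VDAC2 at 1506 read 0.27 and 0.16 with miR-139-5p (mean 0.21 ± 0.07, SD, n = 2; limma adjusted p = 0.9999). It read 0.30 and 0.18 with miR-139-3p (0.24 ± 0.09, SD, n = 2; limma adjusted p = 0.9999). The second VDAC2 probe, at 1490, did not share this: it read -0.02 and -0.06 with miR-139-5p, against -0.04 and -0.17 with miR-139-3p. VDAC3 ranged from -0.09 to 0.13 over the 4 arrays.

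HK2 was the member that varied most among the renal arrays. In A498 it read 0.31 with miR-139-5p, against -0.79 with miR-139-3p, and in 786-O it read -0.01 and -0.21. The mean was 0.15 ± 0.23 (SD, n = 2; limma adjusted p = 0.9999) for the 5p strand and -0.50 ± 0.41 (SD, n = 2; limma adjusted p = 0.9999) for the 3p strand. The 3p value was thus lower than the 5p value in both lines, with log2 differences of -1.10 in A498 and -0.19 in 786-O. HK1 read 0.17 and 0.19 with miR-139-5p, against -0.15 and 0.16 with miR-139-3p. HKDC1 at 3331 read -0.26 and -0.25 with miR-139-5p, against -0.15 and -0.23 with miR-139-3p, below mock on all 4 arrays, though with median centring it read 0.16 and 0.02 on the A498 arrays. In the test of miR-139-3p against miR-139-5p, limma called 0 of 22174 probes (0%) and 0 of 9 member probes, with 151 probes and 0 member probes at an unadjusted p under 0.05. The HK2 difference was -0.65 (SE 0.64, limma adjusted p = 0.9999).

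In MDA-MB-231 cells the si-GINS1 arrays differed in sign for VDAC1 at 1597, HK1, HK2 and HKDC1 at 3331 after loess. The dimmer probes did so too: VDAC1 at 806 read -0.12 and 0.18, and HKDC1 at 2095 read -0.13 and 0.26. The mean of HKDC1 at 2095 was 0.06, above mock, unlike that of the probe at 3331. Across all probes limma called 1936 of 27795 (6.97%), 1010 lower and 926 higher, and 0 of 9 member probes. These calls use a spread pooled with the miR-139 groups, and with only the si-GINS1 arrays 0 probes were called. HK2 read -0.42 with si-GINS1_1 and 1.49 with si-GINS1_2, the highest value of any member on any array (mean 0.54 ± 1.35, SD, n = 2; limma adjusted p = 0.526). HKDC1 at 3331 read -0.92 and 0.03 (-0.44 ± 0.67, SD, n = 2; limma adjusted p = 0.284). VDAC1 at 1597 read -0.36 and 0.44 (0.04 ± 0.57, SD, n = 2; limma adjusted p = 0.925). For these members the spread between the arrays was larger than their mean difference from mock. With median centring the VDAC1 values were 0.31 and 0.87 and the lower HK2 value was 0.00, so the sign on the si-GINS1_1 array depends on the normalisation.

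VDAC2 and VDAC3 were closer between the arrays. VDAC2 at 1506 read 0.24 and 0.47 (0.36 ± 0.16, SD, n = 2; limma adjusted p = 0.0636), the lowest adjusted p of any member. With median centring VDAC2 at 1506 was called (0.85, limma adjusted p = 0.0362), where 10.7% of all probes were called. VDAC2 at 1490 read 0.01 and 0.16, and VDAC3 read -0.07 and -0.04, or 0.41 and 0.20 with median centring. HK1 read -0.11 and 0.37 (0.13 ± 0.34, SD, n = 2; limma adjusted p = 0.615), or 0.42 and 0.66 with median centring. With median centring VDAC2 and VDAC3 were lower on the si-GINS1_2 array than on the si-GINS1_1 array. After loess, the si-GINS1_2 ratio minus the si-GINS1_1 ratio had a median of -0.004 over all 27803 probes. The difference was 1.91 for HK2 (3.75-fold), 0.95 for HKDC1 at 3331, 0.80 for VDAC1 at 1597 and 0.48 for HK1, and 0.03 for VDAC3. Over all probes 2.29% differed by at least 1 in this direction and 2.51% by at least 1 in the other, and HK2 was the 1 member past it. This comparison was added after the values were seen and has no test.

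Leaving out either si-GINS1 array changed which members were called. Without si-GINS1_1, limma called VDAC1 at 1597 (0.44, adjusted p = 0.00875), HK2 (1.49, adjusted p = 0.00869) and VDAC2 at 1506 (0.47, adjusted p = 0.0112), 3 of 9 member probes, where it called 24% of all probes. Without si-GINS1_2, it called VDAC1 at 1597 in the opposite direction (-0.36, adjusted p = 0.0102) and HKDC1 at 3331 (-0.92, adjusted p = 0.000777), 2 of 9, where it called 33.8% of all probes. Both counts are near the share over all probes. The lone array is then assumed to vary like the other groups.

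Over the 8 arrays, VDAC2 at 1506 was above mock on 7 and HKDC1 at 3331 below mock on 7. The exceptions were VDAC2 with miR-490-5p (-0.06) and HKDC1 with si-GINS1_2 (0.03). A shift shared by nearly every array, whatever was transfected, cannot be told apart from a dye difference of that probe. The range from lowest to highest ratio was 2.48 for HK2, 2.04 for HKDC1 at 3331 and 1.78 for VDAC1 at 1597. It was 0.61 for HK1, 0.53 for VDAC2 at 1506, 0.46 for VDAC2 at 1490 and 0.39 for VDAC3. The VDAC1 range rests on the miR-490-3p array, on which it was chosen; without that array it was 0.80 at 1597, while that of HK2 was 2.48 and that of HKDC1 at 3331 was 2.04. Without both miR-490 arrays the HKDC1 range was 0.95 and the HK2 range 2.28.

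Probes of the same gene did not always move together. VDAC2 at 1506 lay above the probe at 1490 by 0.23 to 0.34 on all 8 arrays. VDAC1 at 1597 lay below the probe at 806 by -0.73 with miR-490-3p and above it by 0.24 with miR-490-5p. HKDC1 at 3331 lay below the probe at 2095 by -1.47 with miR-490-5p, against -0.99 with miR-490-3p, and the dimmer probes of both genes are the ones most compressed by the offset. The arrays also carried 1 probe each for the pseudogenes VDAC1P8 and VDAC3P1, named on the array as VDAC1 pseudogene 8 and VDAC3 pseudogene 1. On the miR-490-3p array these read 0.10 and 0.21, so the VDAC1 pseudogene probe did not share the low VDAC1 value.

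The mock channels gave the level of each gene in cells labelled no transfection, and HKDC1 differed most between the lines. Values are quantile-normalised log2 Cy3 signals, given for both mock channels of a line, which may hold the same extract. In A498 HKDC1 at 3331 was at 10.52 and 10.47, in 786-O at 8.71 and 8.50, in HCT116 at 7.70 and 7.55, and in MDA-MB-231 at 6.87 and 6.84. The highest line was 3.64 above the lowest, no neighbouring lines overlapped, and the probe at 2095 gave the same order. Of 19026 probes above background in all 8 mock channels, the median difference between the highest and lowest line was 0.68, and 6.35% differed by at least 2. HKDC1 was thus highest in the renal lines, and it was dim in HCT116, the line in which it was lowest after transfection.

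HK2 and HK1 had different orders. HK2 was at 9.98 and 9.93 in HCT116, 9.14 and 9.05 in 786-O, 8.62 and 8.72 in A498, and 7.96 and 7.99 in MDA-MB-231, with no overlap between neighbours. HK1 was at 9.11 and 9.12 in MDA-MB-231, 9.02 and 8.96 in 786-O, 8.84 and 8.85 in A498, and 7.99 and 7.98 in HCT116. HCT116 thus had the highest HK2 and the lowest HK1 signal, and MDA-MB-231 the lowest HK2 and the highest HK1. HK1 and HKDC1, though neighbours on chromosome 10, did not follow each other over the lines.

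The channels varied less than HK2 and HKDC1, and the brightest probe of each was highest in HCT116. VDAC1 at 1597 lay between 11.23 and 11.59 in all lines, with MDA-MB-231 and A498 overlapping. VDAC2 at 1490 was at 11.20 and 11.15 in HCT116 and between 10.33 and 10.54 in the other lines, of which MDA-MB-231 and A498 overlapped. VDAC3 was at 8.79 and 8.81 in HCT116, 8.51 and 8.48 in MDA-MB-231, 8.20 and 8.27 in A498, and 7.79 and 7.81 in 786-O, with no overlap. The dimmer VDAC1 probe, at 806, differed by 0.06 between the highest and lowest line, with all neighbours overlapping, and VDAC2 at 1506 was highest in HCT116, with the other lines overlapping and 786-O above A498. The order HCT116, MDA-MB-231, A498, 786-O held for the brightest probe of all 3 channels under the alternative scalings that were run. Under 75th percentile scaling, however, the VDAC1 gap between the highest and lowest line was 0.83 instead of 0.31 and that of VDAC2 1.36 instead of 0.80.

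**Figure D3:**
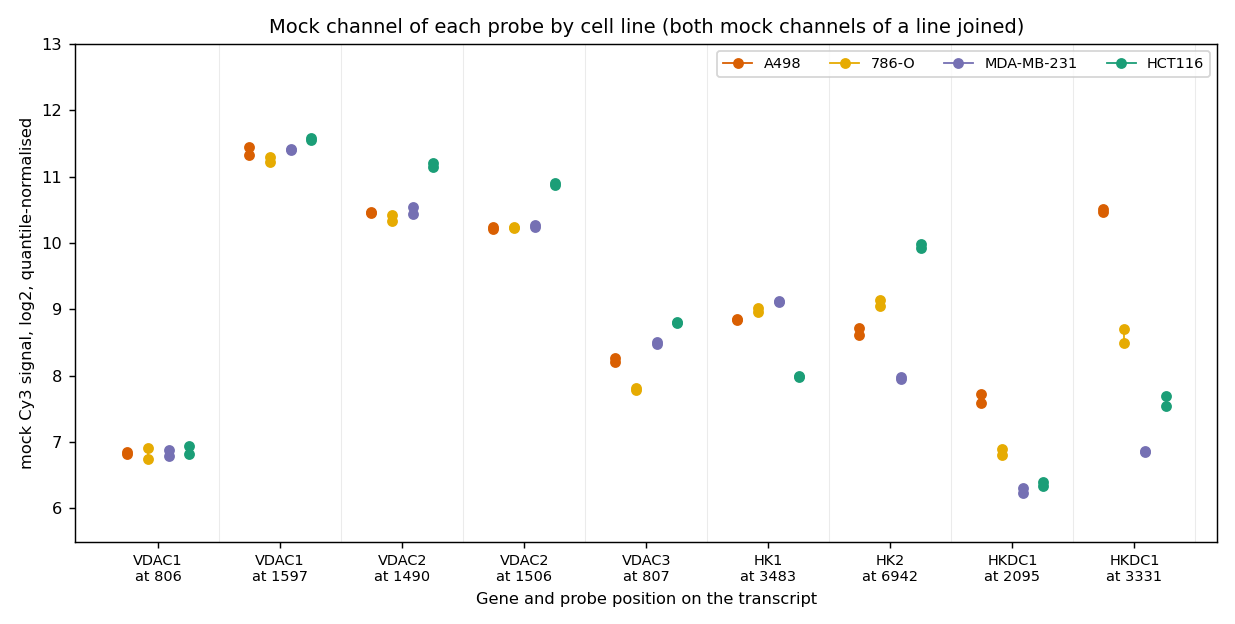
Quantile-normalised log2 Cy3 signal of the mock channels (y axis) for each measured member probe (x axis), coloured by cell line; the points joined by a line are both mock channels of a line. HKDC1 at 3331 falls from 10.52 in A498 to 6.84 in MDA-MB-231, while VDAC1 at 1597 stays between 11.23 and 11.59; levels of different probes are not comparable.

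Among the enzymes below hexokinase, 3 were past the size in HCT116 with miR-490-5p. HK2 and HKDC1 read lower with that strand than with miR-490-3p, while HK1 read higher (0.46 against 0.25). Genes of 9 pathway lists, read by their brightest probe, are described by counts and medians. The shares over all probes include dim probes, which the offset pulls toward 0, so the sets set side by side are not alike. Of 15 glycolytic genes, 3 were at or below -1 with miR-490-5p (20%, against 0.963% of all probes), none was at or above 1 (0.265% of all probes), and 12 were below 0. PFKP (0.53), PFKL (0.16) and TPI1 (0.08) were above 0. The list median was -0.46, against 0.01 over all probes, and -0.21 with 10 below 0 and 2 past the size with median centring. GAPDH read -1.36, PGK1 -1.25 and PFKM -1.09; they catalyse oxidation, the first ATP-yielding step and the phosphofructokinase step. With miR-490-3p the same list had a median of 0.00 (0.36 with median centring) with none past the size, and its lowest genes were ALDOC (-0.82) and ENO2 (-0.53). The difference between strands was 1.35 for PFKM, 1.13 for PGK1 and 1.05 for GAPDH, all higher with the 3p strand.

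Of the glucose and lactate transport genes, 1 of 6 was at or below -1 on the same array, and none with median centring. With miR-490-5p, the lactate exporter SLC16A3 read -1.0 and the glucose transporter SLC2A1 read -0.93, and 4 of 6 measured genes were below 0, while SLC2A3 (0.09) and SLC2A12 (0.10) were above 0. With miR-490-3p they read 0.23 and -0.02, and none of 4 measured genes was past the size. All 10 genes of the pentose phosphate and glycogen list were below 0 with miR-490-5p (median -0.29, none past the size), with GYS1, glycogen synthase, at -0.84. With miR-490-3p 5 of these 10 were below 0 (median -0.02, or 0.30 with median centring), GYS1 at -0.42 among them. Of the other glucose-phosphorylating enzymes, ADPGK read -0.20 with the 5p strand and 0.05 with the 3p strand, and HK3 was not well above background on either array.

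Partners of the channels gave mixed values. SLC25A5, an ATP/ADP exchanger of the inner membrane, read -1.20 with miR-490-5p, against -0.41 with miR-490-3p. CKMT1A, a mitochondrial creatine kinase, read -1.0 with miR-490-3p, against -0.67 with miR-490-5p. PPIF, cyclophilin D, read 0.94 with miR-490-3p. The list median over 11 genes was -0.06 with miR-490-3p, against -0.29 with miR-490-5p, with 1 gene at or below -1 on each array. With median centring none was at or below -1 on either array. Under that setting 1 gene was at or above 1 with miR-490-3p, and the miR-490-3p median was 0.08. BAK1, a pore-forming member of the BCL2 family, read 1.01 with miR-490-3p, the 1 gene of 8 in its list past the size, and BAX read 0.61 with miR-490-5p. The 7 outer membrane import genes had medians of 0.17 with miR-490-3p, against -0.04 with miR-490-5p, and none was past the size; with median centring both medians were above 0. The 3 measured uniporter genes had medians of 0.07 and 0.09.

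Among 13 AMPK and mTOR genes, EIF4EBP1, a target of mTOR, read -1.07 and MTOR -0.84 with miR-490-5p, with a list median of -0.08 (0.04 with median centring, under which no gene of the list was past the size). With miR-490-3p the highest was RHEB, an activator of mTOR, at 0.80, the list median was 0.16 and none was past the size. MTOR was the 1 gene of this list past the size between the strands, higher by 1.03 with the 3p strand. Over all lists, 6 of 75 measured genes were at or below -1 with miR-490-5p (8% against 0.963% of all probes, dim ones included). None was at or above 1, but with median centring 2 were at or below -1. With miR-490-3p 1 of 73 was at or below -1 and 1 at or above 1, or 0 and 2 with median centring.

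**Figure D4:**
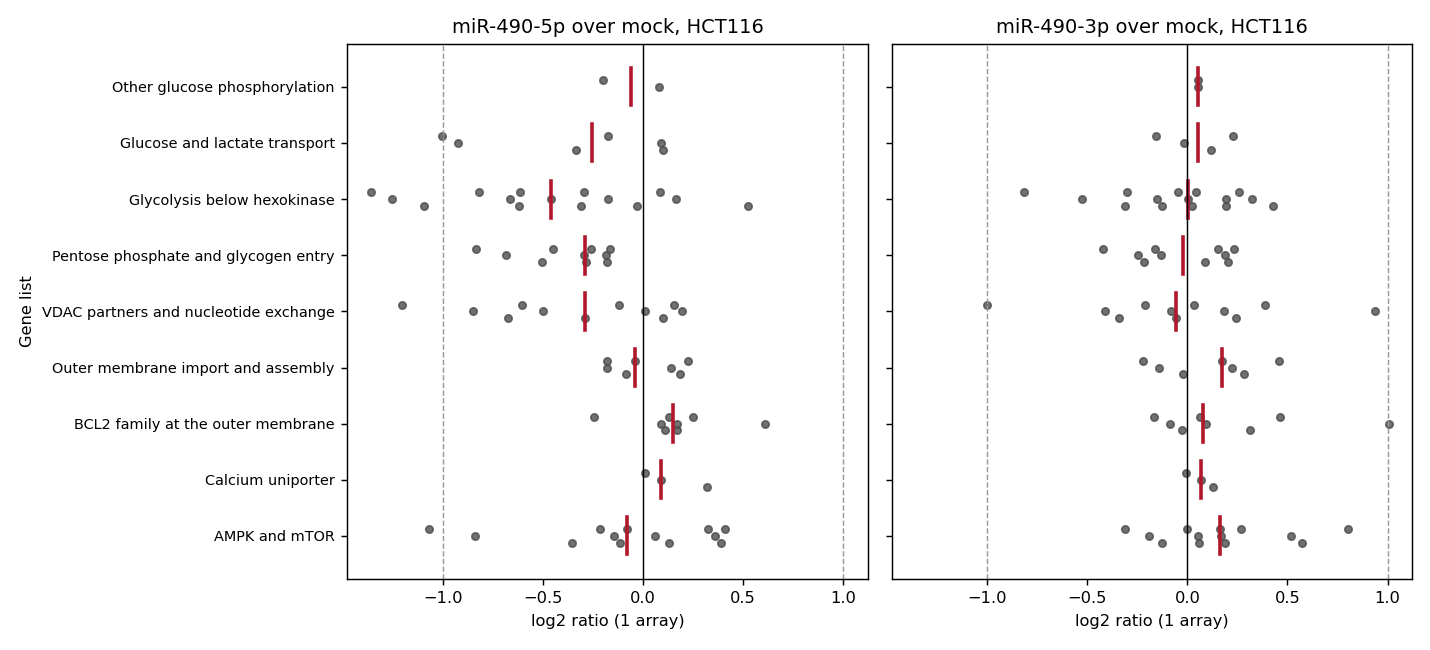
Log2 ratio over mock (x axis, 1 array each) of the measured genes of 9 pathway lists (y axis) with miR-490-5p (left) and miR-490-3p (right) in HCT116 cells; each point is the brightest probe of a gene, red bars are list medians and dashed lines mark 1 and -1. The glycolysis list has a median of -0.46 on the left and 0.00 on the right.

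In the renal lines none of 70 measured list genes was called for either strand of miR-139, by limma. SLC2A1 had the largest value with miR-139-3p (-0.52, limma adjusted p = 0.9999), followed by the calcium release channel ITPR1 (-0.40) and EIF4EBP1 (-0.32). With miR-139-5p the largest were PFKP and SLC25A6 at 0.24 each, a phosphofructokinase and an ATP/ADP exchanger. With si-GINS1, limma called 5 of 74 list genes (6.76%, against 6.97% of all probes), 3 lower and 2 higher, a share near that of all probes, so the values below describe single genes and not the lists. PKM, pyruvate kinase, was lower, at -1.10 on the log2 scale (limma adjusted p = 0.0229) and ENO1, enolase, fell by 1.03 (limma adjusted p = 0.0184). MCU, the pore of the calcium uniporter, fell by 0.57 (limma adjusted p = 0.0276). PRKAG1, an AMPK subunit, rose by 0.31 (limma adjusted p = 0.0304) and MTX1, an import gene, rose by 0.30 (limma adjusted p = 0.0461). In the glycolysis list 14 of 15 genes were below 0, with a median of -0.23 against 0.01 over all probes, but with median centring 5 of 15 were below 0 and the median was 0.26. With median centring PKM (-0.51, limma adjusted p = 0.126), ENO1 (-0.42, limma adjusted p = 0.108) and MCU (-0.41, limma adjusted p = 0.0671) were no longer called. The hexokinase step itself, in HK1 and HK2, passed no test there.

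The genes whose ratios most resembled those of a member over the 8 arrays were ranked by Pearson's r, given as a description, with no p; the points share mock channels of the same line and the scanner. For HKDC1 at 3331 they were PTPRH (0.99), TSPAN1 (0.99) and BCKDHA (0.98). For HK2, LRP10 (0.97) and a pseudogene of RPL7 (0.97) led. For HK1, SH3RF1 (0.98) and PDP1 (0.97) led, followed by an uncharacterised transcript. For VDAC3 they were UMPS (0.97), ATXN7L3B (0.95) and MAP3K1 (0.95). VDAC2 at 1490 was nearest to a long noncoding RNA, a transcript assembly and QTRT1 (0.97 each). VDAC1 at 1597 was nearest to unnamed probes and an expressed tag, with r from 0.981 to 0.996. These also had their lowest values on the miR-490-3p array (-1.30, -1.04 and -0.46), so their r rests largely on the array that chose VDAC1. HKDC1 and its nearest genes were likewise lowest on the miR-490 arrays. Among the members, the highest r between brightest probes was 0.74, between VDAC2 and HK2, and that of VDAC1 with HKDC1 was 0.37.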

How the data were processed

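The 8 Agilent two-colour arrays were scanned and extracted by the authors with Feature Extraction (11.5.1.1), per the file headers. The deposited columns used were mean and background Cy3 and Cy5 intensity per spot and the scanner's log10 ratio; the deposited series table held the same log10 ratios (largest difference 0 over 503808 values). Log2 ratios of Cy5 (transfected) over Cy3 (mock) were computed from the deposited intensity values with limma (3.58.1, R 4.3.3): normexp background correction with an offset of 50, loess within each array, control spots weighted 0, flagged spots dropped, spots of a probe averaged. This offset pulls dim probes toward 0.

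A probe was used in a comparison if it was well above background in Cy3 or Cy5 on each of its arrays. One limma model held 8 arrays and 5 groups (3 residual degrees of freedom); calls had a Benjamini-Hochberg adjusted p under 0.05. The miR-490 arrays, 1 each, had no test, and 1 on the log2 scale was the size counted. Nothing states that arrays of a group came from separate cultures. The p-values rest on the spread between arrays of a group, pooled over the miR-139 and si-GINS1 groups. For miR-139 that spread lies between A498 and 786-O, so a si-GINS1 p-value rests partly on the renal lines. Mock levels were quantile-normalised Cy3 signals. A run of the model on simulated data, with independent noise of equal spread on all arrays, checked the code only. It says nothing of the spread between lines or between the si-GINS1 arrays. The miR-139 arrays are paired by cell line; their deviations correlated weakly (r = 0.08 over 22178 probes), and the unblocked fit was kept as the main one.

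The members, pathway lists and markers were chosen with earlier results of these data known. All member probes are named; of each list, up to 4 called genes or genes past the size, or otherwise the 2 largest, and 3 genes most like each member. Some genes that this rule names are not reported here. TOMM70 was matched through an older symbol. The largest list values and some list genes beside this rule were named after their values were seen. Alternatives were an offset of 10, no background correction, median centring, the scanner ratio, no filter, a filter in both channels, the median of a gene's probes, subtraction of the mean of the other lines, left-out arrays, a cell line block, only the si-GINS1 arrays, a variance trend, and 75th percentile scaling of mock levels. The number of arrays limits the precision.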

Additional observations from a re-analysis of the deposited data

How the results depend on the processing

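The size-based HCT116 values rest on 1 array per strand, and dim probes depend on the background step. VDAC1 and HKDC1 stayed below mock with miR-490-3p, and HKDC1 with miR-490-5p, under all alternatives run. Of 130 counts recomputed, 90 stayed within 1.5 times; of 444 single member values, 363 kept their direction and side of the threshold or moved by less than the mock spread, and 29 changed sign. The cause of a change was not tested unless fewer arrays or another filter gives it.

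Probes past the size numbered 262 for miR-490-3p, 343 for miR-490-5p and 314 between strands. With an offset of 10 they were 551, 711 and 806, without background correction 478, 602 and 691, and with the scanner ratio 2301, 2479 and 2746; with median centring the strand count was 494. Member probes past the size for miR-490-5p were 3 with an offset of 10 or no background correction and 2 with the scanner ratio or the mean of the other lines subtracted. For miR-490-3p they were 4 with the scanner ratio and 1 with median centring, and between strands 2 with an offset of 10 and 3 with the scanner ratio.

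For miR-139-5p, 3 probes were called, against 6 with an offset of 10, 7 with the scanner ratio and 0 with median centring, with no filter, with the filter in both channels, with the other lines subtracted, with the cell line as replicate block, and without either array (0 to 0). For miR-139-3p, 0 were called, against 6 with an offset of 10, 4 without background correction, 13 with the scanner ratio and 3 with a variance trend. For si-GINS1, 1936 were called, against 2974 with median centring, 75 with the scanner ratio, 544 with the other lines subtracted and 0 with only the si-GINS1 arrays. Without 1 of these arrays 6672 to 9393 were called, with 2 to 3 member probes. Median centring called 1 member probe, VDAC2 at 1506. The replicate block by cell line changed no call of a member.

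The following member values changed sign. With median centring, VDAC1 read 0.25, VDAC2 0.17 and VDAC3 0.13 for miR-139-5p. It gave VDAC1 0.15 and VDAC2 0.085 for miR-139-3p, and VDAC3 0.31 for si-GINS1. With the other lines subtracted, VDAC1 read 0.25, HK1 -0.062 and HKDC1 0.83 for miR-139-5p. The same step for miR-139-3p gave 0.18 for VDAC1, -0.015 for VDAC3, -0.24 for HK1 and 0.89 for HKDC1, and for si-GINS1 it gave -0.053 for HK1 and 0.28 for HKDC1. HK1 with miR-139-3p read -0.0046 with an offset of 10 and -0.0048 without background correction. The median of a gene's probes gave VDAC2 values of 0.086 (5p strand) and 0.069 (3p strand) against mock, and -0.042 for HKDC1 between the miR-139 strands. Leaving out each array in turn, VDAC1 ran from -0.015 to 0.0028, VDAC3 from -0.087 to 0.062 and HK2 from -0.012 to 0.31 for miR-139-5p. HK1 ran from -0.15 to 0.16 for miR-139-3p, and VDAC2 from -0.12 to 0.0036 between the strands. For si-GINS1, VDAC1 ran from -0.36 to 0.44, HK1 from -0.11 to 0.37, HK2 from -0.42 to 1.49 and HKDC1 from -0.92 to 0.030.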
